A study of Oryza sativa with 27 samples.

Results

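The herbicide safeners metcamifen and cyprosulfamide were compared in rice suspension cells 90 min after dosing. The 3 libraries labelled with metcamifen at 90 min were set against the 3 labelled with cyprosulfamide at 90 min, 6 of the 27 libraries of the series, and the comparison was read over the rows whose identifier begins with LOC_Os, 45866 of the 46102 rows of the count table. All cells were 5-day-old suspension cultures of the cultivar Tsukinohikari. Both safeners were given at a final 5 µM from stocks in dimethyl sulfoxide (DMSO), which the carrier group received alone, so every group was exposed to DMSO. Cells were also taken at 30 and 240 min, and all 9 groups, 3 treatments by 3 times, had 3 libraries described as biological replicates. Whether these came from separate cultures is not stated, so p-values measure the spread between these samples. Suspension cells of a single cultivar stand in here for a plant that would meet a safener through seed, root or leaf.

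Safeners are given with a herbicide so that the crop survives a dose that kills the weed. In cereals they are known to raise transcripts of detoxifying enzymes, among them glutathione transferases, cytochrome P450s and glucosyltransferases, and of the transporters that move the conjugates into the vacuole. Metcamifen and cyprosulfamide share an acyl sulfonamide core in which a methoxybenzoyl group is joined through the sulfonamide nitrogen to a second ring. They differ at the far end of that ring, where metcamifen carries a methylurea and cyprosulfamide a cyclopropyl amide.

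The metcamifen libraries held 14554898, 13701777 and 25053543 counts and the cyprosulfamide libraries 19651070, 15114568 and 10110614. The lowest total therefore belonged to a cyprosulfamide library and the highest to a metcamifen library. Levels are given in CPM, counts scaled to a common library size after TMM adjustment, and 26377 LOC_Os loci passed the filter on low counts. None of the 45866 identifiers was found in the gene table at hand, so loci are given by identifier alone, without a name or role, and the cell type could not be checked against markers. In such bulk RNA, fewer cells of a kind and less RNA per cell cannot be told apart. Within a safener, single pairs of libraries had 1 to 101 loci at least 2-fold apart for metcamifen and 3 to 70 for cyprosulfamide, counted where the mean log2 CPM of a locus exceeded 3. Between the safeners the 9 pairs had 280 to 665 such loci. Between cyprosulfamide and DMSO libraries of the same time they had 3 to 216.

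At 90 min 1334 loci were higher under metcamifen than under cyprosulfamide and 459 were lower (edgeR's quasi-likelihood test, Benjamini-Hochberg adjusted p under 0.05, two-sided). These were 5.06% and 1.74% of the tested loci, 6.8% together. Higher loci differed by a median of 0.93 log2 units, with quartiles of 0.53 and 1.69, and lower loci by a median of -0.62, with quartiles of -0.89 and -0.44. Of the higher loci 625 were at least 2-fold apart, 242 at least 4-fold, 116 at least 8-fold and 55 at least 16-fold. Of the lower loci 84 were at least 2-fold apart, and the widest difference was -2.88 log2 units. The 3 libraries of each safener did not overlap at 1331 of the higher and 458 of the lower loci, where 14.4% and 12.6% of all tested loci had no overlap in those directions. Leaving out any 1 of the 6 libraries lowered both numbers. The lower loci became 227, 306 and 294 without Metcamifen_90min replicate 1, 2 or 3. Without Cyprosulfamide_90min replicate 1, 2 or 3 they became 314, 309 and 280. The higher loci became 1006, 1088 and 1158 and then 1113, 1043 and 1079, in the same order. With all libraries thinned to the smallest total 734 loci were called, and with 1 surrogate variable 3041.

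**Figure D1:**
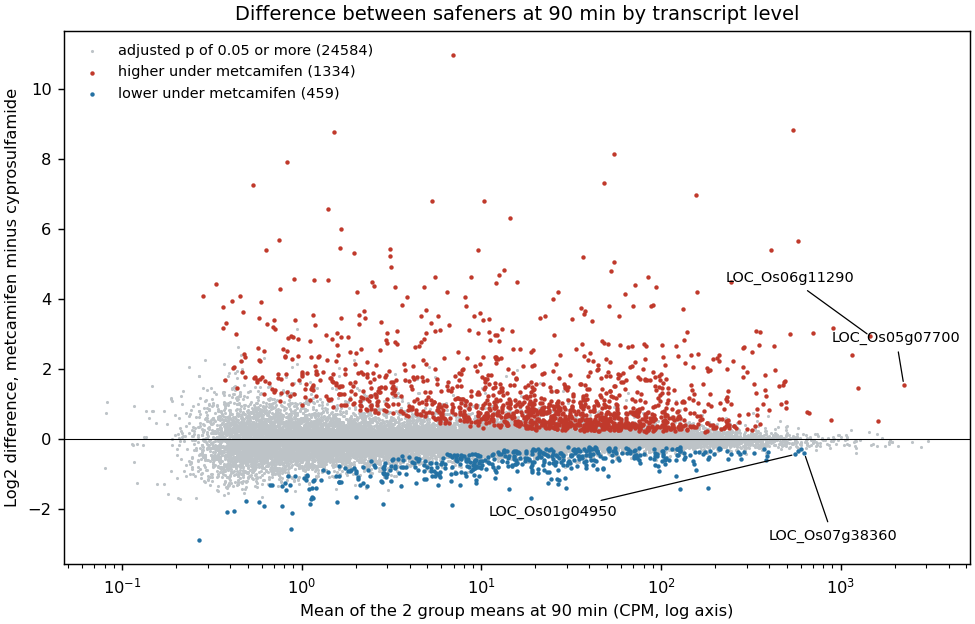
Log2 difference between metcamifen and cyprosulfamide at 90 min (vertical axis) against the mean of both group means in CPM (horizontal log axis), 1 point per tested LOC_Os locus. Red points are the 1334 loci higher under metcamifen, blue points the 459 lower and grey points all others; the widest blue point lies at -2.88, while 55 red points lie at 16-fold or more.

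Both groups of called loci were then read next to the DMSO libraries of the same time, which took no part in the contrast. The higher loci had a median level of 29.7 CPM under metcamifen, 15.7 under cyprosulfamide and 16.2 in DMSO. The lower loci had a median of 13.2 CPM under metcamifen, 19.5 under cyprosulfamide and 17.98 in DMSO. Set against DMSO, the higher loci had a median log2 difference of 0.89 for metcamifen and -0.05 for cyprosulfamide, and the lower loci of -0.50 and 0.09. Over all tested loci these medians were -0.01 and -0.0044. Over all tested loci, 1188 were higher under metcamifen than in DMSO (4.5%) and 384 lower (1.46%), 5.96% together. The 384 became 238, 225 and 228 without Metcamifen_90min replicate 1, 2 or 3. Without DMSO_90min replicate 1, 2 or 3 they became 229, 300 and 290. Between cyprosulfamide and DMSO 0 of 26377 loci were called by edgeR and 0 by DESeq2. In edgeR 818 had an unadjusted p under 0.05, fewer than that threshold passes on average where no locus differs. Neither result shows that no locus differed, and the fit with 1 surrogate variable was not run for this contrast. These contrasts share libraries with the one that chose the loci, which by itself draws metcamifen away from DMSO and cyprosulfamide to its other side, so the values are a description.

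The higher loci took 10.5%, 10.3% and 10.2% of all counts in the metcamifen libraries and 4.88%, 4.98% and 4.97% in the cyprosulfamide libraries. In DMSO libraries of the same time they took 4.79%, 5.21% and 5.23%, so the cyprosulfamide libraries lay inside the range of the carrier. The lower loci took 1.54%, 1.67% and 1.67% of counts under metcamifen, 2.41%, 2.39% and 2.39% under cyprosulfamide and 2.43%, 2.25% and 2.16% in DMSO. Since the loci were chosen in the 6 safener libraries of 90 min, part of both gaps comes from that choice. The 10 higher loci with the widest CPM difference held 23.3% of the summed difference, and 54 of the 1334 higher loci held 50% of it.

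**Figure D2:**
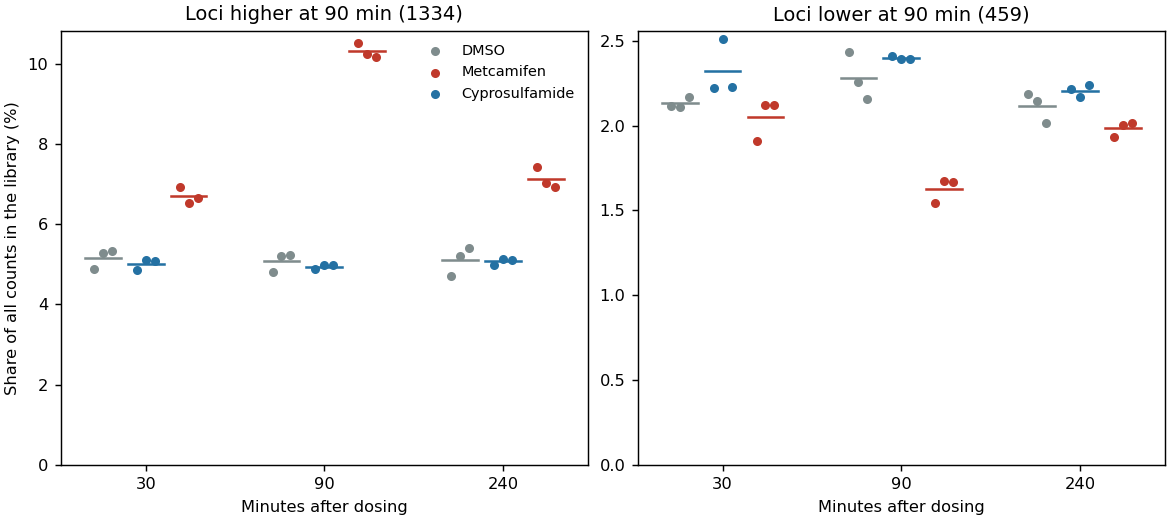
Share of all counts of a library (vertical axis, %) taken by the 1334 higher loci (left) and the 459 lower loci (right), by minutes after dosing. Points are libraries and bars group means; the metcamifen libraries of 90 min stand at 10.2 to 10.5% on the left and at 1.54 to 1.67% on the right, apart from every cyprosulfamide and DMSO library.

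At 90 min 4 loci are named, those with the widest difference in mean CPM in either direction among called loci without overlap. LOC_Os06g11290 stood at 2830, 2519 and 2383 CPM in the metcamifen libraries and at 277, 365 and 362 CPM in the cyprosulfamide libraries. Its DMSO libraries held 216, 386 and 397 CPM, on both sides of the cyprosulfamide values. The group means were 2577 ± 229 and 335 ± 50.4 CPM (SD, n = 3), a log2 difference of 2.95 (SE 0.29, adjusted p = 6.96e-08 in edgeR). With LOC_Os05g07700, the levels were 3434, 3406 and 3200 CPM under metcamifen against 1218, 1086 and 1138 CPM under cyprosulfamide and 1226, 1209.9 and 1211 CPM in DMSO. All 3 metcamifen libraries were again far above the rest, and the locus ranked 4 among all tested loci by its mean over the 6 libraries. Its log2 difference was 1.54 (SE 0.08, adjusted p = 3.21e-13), from means of 3346 ± 128 and 1147 ± 66.5 CPM (SD, n = 3). Both calls held in all 16 alternative settings.

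The lower loci with the widest CPM difference were abundant transcripts with small ratios. LOC_Os01g04950 stood at 439, 499 and 488 CPM under metcamifen, 662, 647 and 626 CPM under cyprosulfamide and 676, 635 and 575 CPM in DMSO. Every metcamifen library was below every cyprosulfamide and DMSO library, with a log2 difference between the safeners of -0.44 (SE 0.09, adjusted p = 0.00212 in edgeR). LOC_Os07g38360 stood at 550.0, 532 and 539.6 CPM under metcamifen and at 622, 809.7 and 711 CPM under cyprosulfamide, where replicate 2 was highest. DMSO libraries held 636, 679 and 647 CPM. The log2 difference was -0.40 (SE 0.11, adjusted p = 0.0282). The call was lost when any 1 metcamifen library was left out, and also without Cyprosulfamide_90min replicate 2 or 3, with a log2 difference of -0.30 and adjusted p = 0.192 without Cyprosulfamide_90min replicate 2. Adjusted p ranged from 0.00103 to 1 over its 16 alternative settings, the highest from a test against a 2-fold difference.

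No tested locus was without counts under metcamifen, and 4 were without a single count in the 3 cyprosulfamide libraries. Under metcamifen they held 54 to 718 counts over the group. A locus without counts in a group passes the filter on low counts through other libraries in which it is high, so the calls at these loci are given as a description. Against a floor of 3 counts over the cyprosulfamide group, and by total counts, they were at least 15.2-fold to at least 201-fold higher, bounds that cover counting error only. The locus with 718 counts was LOC_Os09g32000, at 193, 176 and 349 counts in the metcamifen libraries and 2 counts over the 3 DMSO libraries. The other 3 held 0 to 3 counts over the DMSO group.

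How much of the response could be seen depended on the level of a locus. Among loci under 1 CPM over the 6 libraries 2.08% were called higher and 0.520% lower, from 1 to 10 CPM 3.91% and 1.91%, from 10 to 100 CPM 6.12% and 1.81%, and at 100 CPM or more 7.93% and 2.42%. The size of called differences went the other way, with a median of 2.33 log2 units for higher loci under 1 CPM and 0.79 at 100 CPM or more. At the 24584 loci that were not called, the 95% interval reached a median of 0.94 log2 units to either side under 1 CPM and 0.18 at 100 CPM or more. The whole interval stayed inside a 2-fold difference, up or down, for 18.8%, 81.7%, 97.4% and 98.6% of the loci that were not called in the 4 ranges of level, from low to high. It stayed inside 1.5-fold for 0.126%, 38.5%, 87.9% and 93.1%. Below 1 CPM most intervals of loci that were not called thus still held a 2-fold difference between the safeners. From 10 CPM upward, differences of 2-fold lay outside the interval at nearly all loci that were not called.

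The 55 loci that were at least 16-fold higher were low without metcamifen. Their median level was 12.2 CPM under metcamifen, 0.391 CPM under cyprosulfamide and 0.415 CPM in DMSO, and 38 of them lay under 1 CPM in the cyprosulfamide group. Such loci can pass the filter on low counts through metcamifen libraries alone. The class was also chosen by fold, so the low levels elsewhere are a description. The 55 loci stood on 10 of the 12 chromosomes, by the chromosome number in the identifier. At 30 min 41 of these 55 loci were higher under metcamifen, and at 240 min 35. Of the 709 higher loci under 2-fold, 48 were higher at 30 min and 177 at 240 min. In percent this was 74.5% and 63.6% of the widest class against 6.77% and 24.96% of the narrowest, where 1.18% and 2.48% of all tested loci were called higher at 30 and 240 min. Smaller differences are harder to call at any time, and the classes were formed on the fold at 90 min. The 84 lower loci at 2-fold or more included 7 that were lower at 30 min, and the 375 under 2-fold included 12, or 8.33% and 3.2%, where 0.246% of all tested loci were called lower. At 240 min the order was the reverse, with 3 of the 84 and 45 of the 375 called lower, or 3.57% and 12%, where 1.47% of all tested loci were.

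The 30 and 240 min libraries were not compared in the 90 min contrast, so lists from those times were followed into the 90 min libraries. All libraries shared the same filter, scaling and estimate of spread per locus, so the choices at different times were not separate. At 30 min 376 loci were called (1.43%) and at 240 min 1043 (3.95%). Of the 311 loci higher under metcamifen at 30 min, 294 were called higher at 90 min, which is 94.5% of the 30 min list and 22.04% of the 90 min list, where 5.06% of all tested loci were called higher at 90 min. None was called lower at 90 min. Their median log2 difference went from 1.33 at 30 min to 1.97 at 90 min and 0.68 at 240 min, and 304 of them had no overlap between the safeners at 90 min, as did 14.4% of all tested loci with metcamifen higher. These 311 loci took 4.44%, 4.40% and 4.36% of counts in the metcamifen libraries of 90 min and 1.13%, 1.13% and 1.15% in the cyprosulfamide libraries, next to 1.08%, 1.18% and 1.16% in DMSO. Of the 655 loci higher at 240 min, 407 were higher at 90 min (62.1% of that list and 30.5% of the 90 min list), with a median log2 difference of 0.56 at 90 min and 0.64 at 240 min.

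The lower loci of the other times were followed in the same way. Of the 65 loci lower under metcamifen at 30 min, 19 were called lower at 90 min and 7 were called higher. Of the 388 lower at 240 min, 48 were lower at 90 min, or 12.4% of that list and 10.5% of the 90 min list. Tested loci as a whole were called lower at a rate of 1.74% at 90 min, 0.246% at 30 min and 1.47% at 240 min. The median log2 difference of the 240 min list was -0.12 at 90 min, and 286 of its 388 loci had the same sign there. Over all tested loci the median at 90 min was -0.0088. The size of these lists changed when 1 library was left out. The 65 loci became 39, 33 and 29 without Metcamifen_30min replicate 1, 2 or 3. They became 96, 23 and 133 without Cyprosulfamide_30min replicate 1, 2 or 3. The 388 loci became 206, 221 and 232 without Metcamifen_240min replicate 1, 2 or 3. Without Cyprosulfamide_240min replicate 1, 2 or 3 they became 187, 287 and 274. Whether overlap differs between higher and lower loci was not tested, and the lower lists hold smaller differences. Lists of different times compare different libraries, but they share the estimate of spread per locus. Same-numbered metcamifen libraries of neighbouring times also correlated at 0.361 to 0.738 in their deviations from the group mean, so the lists are not independent.

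**Figure D3:**
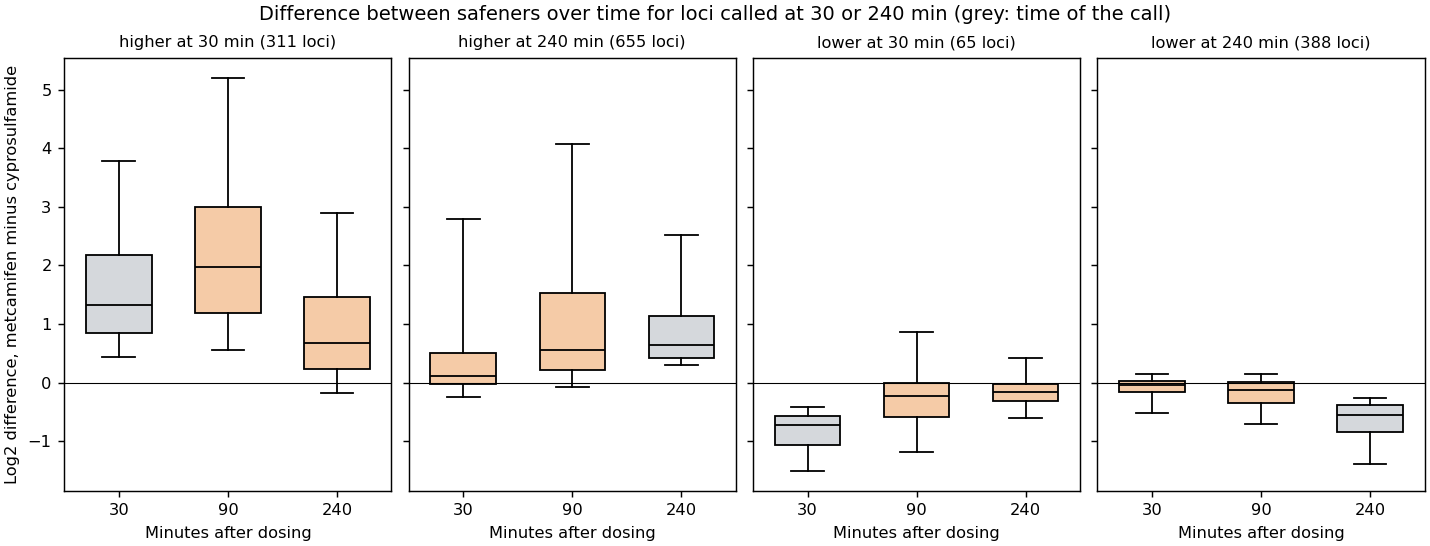
Log2 difference between metcamifen and cyprosulfamide (vertical axis) at 30, 90 and 240 min for the loci called at 30 or 240 min. Boxes give quartiles and median, whiskers the 5th and 95th percentiles, and grey boxes the time that chose the list; the 311 loci higher at 30 min have their highest median, 1.97, at 90 min, and both lists of lower loci have medians of -0.23 and -0.12 there.

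Split by time, 158 of the 1334 higher loci were called higher at all 3 times, 136 at 30 and 90 min but not 240 min, 249 at 90 and 240 min but not 30 min, and 791 at 90 min alone. Of all tested loci, 1.18% were called higher at 30 min and 2.48% at 240 min. The loci called at all 3 times had a median level under metcamifen of 52.4, 102 and 36.1 CPM at 30, 90 and 240 min, and under cyprosulfamide of 17.8, 17.9 and 16.9 CPM. Those called at 30 and 90 min only went from 17.7 and 17.8 CPM to 7.52 CPM under metcamifen, close to 6.45 CPM under cyprosulfamide at 240 min. For the 249 loci of 90 and 240 min the metcamifen medians were 30.0, 47.8 and 45.5 CPM, against 28.4, 27.8 and 29.4 CPM under cyprosulfamide. The 791 loci of 90 min alone had metcamifen medians of 14.8, 23.6 and 16.7 CPM and cyprosulfamide medians of 14.5, 13.9 and 14.2 CPM. The classes were formed by calls in these same libraries, so wider gaps at called times and narrower gaps at others are in part built in. A locus that missed the threshold at one time is not shown to lack a difference there, so changes over time were tested directly.

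From 30 to 90 min the difference between the safeners became more positive at 479 loci and more negative at 42, which is 1.82% and 0.159% of the tested loci and 1.98% together (edgeR, adjusted p under 0.05). The 42 loci became 23 without Metcamifen_30min replicate 2 or Metcamifen_90min replicate 1, 27 without Metcamifen_30min replicate 3 and 25 without Metcamifen_90min replicate 2. The most, 59, were called without Cyprosulfamide_30min replicate 2. LOC_Os10g08540 had the widest positive change. Under metcamifen it went from 1.69, 1.61 and 1.39 CPM to 23.1, 21.1 and 17.2 CPM, and under cyprosulfamide from 0.334, 0.572 and 0.409 CPM to 0.101, 0.327 and 0.0984 CPM. The metcamifen libraries of 90 min stood above all others, and the log2 difference went from 1.74 to 6.80, a change of 5.05 (SE 0.46, adjusted p = 2.81e-07). LOC_Os09g34270 went from 0.987, 0.574 and 0.36 CPM to 6.11, 5.98 and 6.07 CPM under metcamifen, while its cyprosulfamide libraries stayed between 0.0503 and 0.357 CPM at both times. Its change was 4.49 log2 units (SE 0.74, adjusted p = 0.000828). Both rest on few counts under cyprosulfamide at 90 min, 8 and 6 over the group, and neither call held with all libraries thinned to the smallest total (adjusted p = 0.559 and 0.761). Loci as low as these outside metcamifen can pass the filter on low counts through metcamifen libraries. They were also named for the width of this change, so their tests are given as a description.

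Among the negative changes, LOC_Os04g35390 was high under metcamifen at 30 min, at 3.10, 3.94 and 4.63 CPM, and had come down to 1.09, 0.672 and 1.23 CPM at 90 min. The cyprosulfamide libraries held 0.543, 0.405 and 0.491 CPM at 30 min and 1.06, 0.457 and 1.18 CPM at 90 min, where both groups overlapped. The log2 difference went from 3.06 to 0.21, a change of -2.85 (SE 0.50, adjusted p = 0.00166), and the call ended with thinned libraries (adjusted p = 0.785). LOC_Os07g05420 did the reverse, with overlapping groups at 30 min (1.97, 1.53 and 2.27 CPM under metcamifen, 1.80, 2.45 and 1.84 CPM under cyprosulfamide). At 90 min it stood at 0.436, 1.05 and 0.656 CPM against 3.27, 1.76 and 2.26 CPM, and DMSO at 2.47, 2.76 and 1.45 CPM. The change of -1.69 log2 units (SE 0.41, adjusted p = 0.0291) lost its call without Metcamifen_30min replicate 3, Metcamifen_90min replicate 1 or 3, Cyprosulfamide_30min replicate 1 or 3, or Cyprosulfamide_90min replicate 1, with adjusted p from 0.0151 to 0.911 over 21 settings.

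From 90 to 240 min the difference became more negative at 294 loci and more positive at 82, or 1.11% and 0.311% of the tested loci and 1.43% together. The 82 loci became 50 without Metcamifen_90min replicate 1 or Metcamifen_240min replicate 3, 51 without Metcamifen_90min replicate 2 or Metcamifen_240min replicate 2 and 49 without Cyprosulfamide_90min replicate 3. With 1 library left out the most, 71, were called without Metcamifen_240min replicate 1. Same-numbered libraries of one safener deviated together over these times, and with each safener and number as a block 1227 loci were called, 896 more negative and 331 more positive. The other counts and the tests per locus given here come from fits without that block. With it, adjusted p in edgeR was 3.13e-05 at LOC_Os10g31780, 0.0104 at LOC_Os09g32000, 0.000493 at LOC_Os05g28830 and 0.02 at LOC_Os02g48060. LOC_Os10g31780 stood at 17.2, 15.9 and 17.5 CPM under metcamifen at 90 min and at 0.715, 0.472 and 0.515 CPM at 240 min. Cyprosulfamide libraries held 0.655, 0.849 and 0.492 CPM at 90 min and 0.355, 0.527 and 0.479 CPM at 240 min, so the groups were far apart at the first time and overlapped at the second. The log2 difference went from 4.62 to 0.29, a change of -4.33 (SE 0.75, adjusted p = 0.00139) that lost its call only with thinned libraries among 21 settings (adjusted p = 0.138). LOC_Os09g32000, without counts under cyprosulfamide at 90 min, fell under metcamifen from 14.03, 13.1 and 14.3 CPM to 0.715, 0.944 and 0.927 CPM. Its cyprosulfamide libraries held 3 counts in all at 240 min, so its fitted change of -7.98 (adjusted p = 0.0451) is no measure of size. That call ended under 13 of 21 settings, among them the omission of any 1 of the 12 libraries other than Cyprosulfamide_240min replicate 1.

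The widest positive changes from 90 to 240 min were at low levels. LOC_Os05g28830 went from 2.33, 2.09 and 2.09 CPM to 4.58, 5.48 and 4.84 CPM under metcamifen and from 2.77, 2.74 and 2.56 CPM to 1.06, 1.69 and 1.50 CPM under cyprosulfamide. The metcamifen libraries lay below all cyprosulfamide libraries at 90 min and above all of them at 240 min, a change of 2.08 log2 units (SE 0.32, adjusted p = 0.000479). The difference at 90 min, -0.32, did not pass the test by itself (adjusted p = 0.513), that at 240 min, 1.76, did (adjusted p = 3.34e-05), and the change lost its call with thinned libraries (adjusted p = 0.404). LOC_Os02g48060 went from 0.509, 0.374 and 0.738 CPM to 2.10, 1.27 and 1.65 CPM under metcamifen and from 1.36, 1.37 and 1.08 CPM to 0.177, 0.949 and 0.889 CPM under cyprosulfamide. Its change of 2.32 log2 units (SE 0.57, adjusted p = 0.0363) ended without any 1 of 10 of the 12 libraries, the exceptions being Metcamifen_90min replicate 3 and Metcamifen_240min replicate 2.

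Among the loci named at 90 min, the difference at LOC_Os06g11290 was 2.79 log2 units at 30 min, 2.95 at 90 min and 1.14 at 240 min. The step to 90 min did not pass the test (adjusted p = 0.943), and the change of -1.81 to 240 min did (SE 0.38, adjusted p = 0.0123). At LOC_Os05g07700 the difference was 0.89, 1.54 and 0.48 log2 units, and both the change of 0.65 to 90 min (SE 0.11, adjusted p = 0.00089) and that of -1.06 to 240 min (SE 0.11, adjusted p = 1.50e-06) passed. The differences at LOC_Os01g04950 were -0.12, -0.44 and -0.13 and at LOC_Os07g38360 -0.09, -0.40 and 0.11. No change between neighbouring times passed the test at these latter loci (adjusted p from 0.134 to 0.469).

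**Figure D4:**
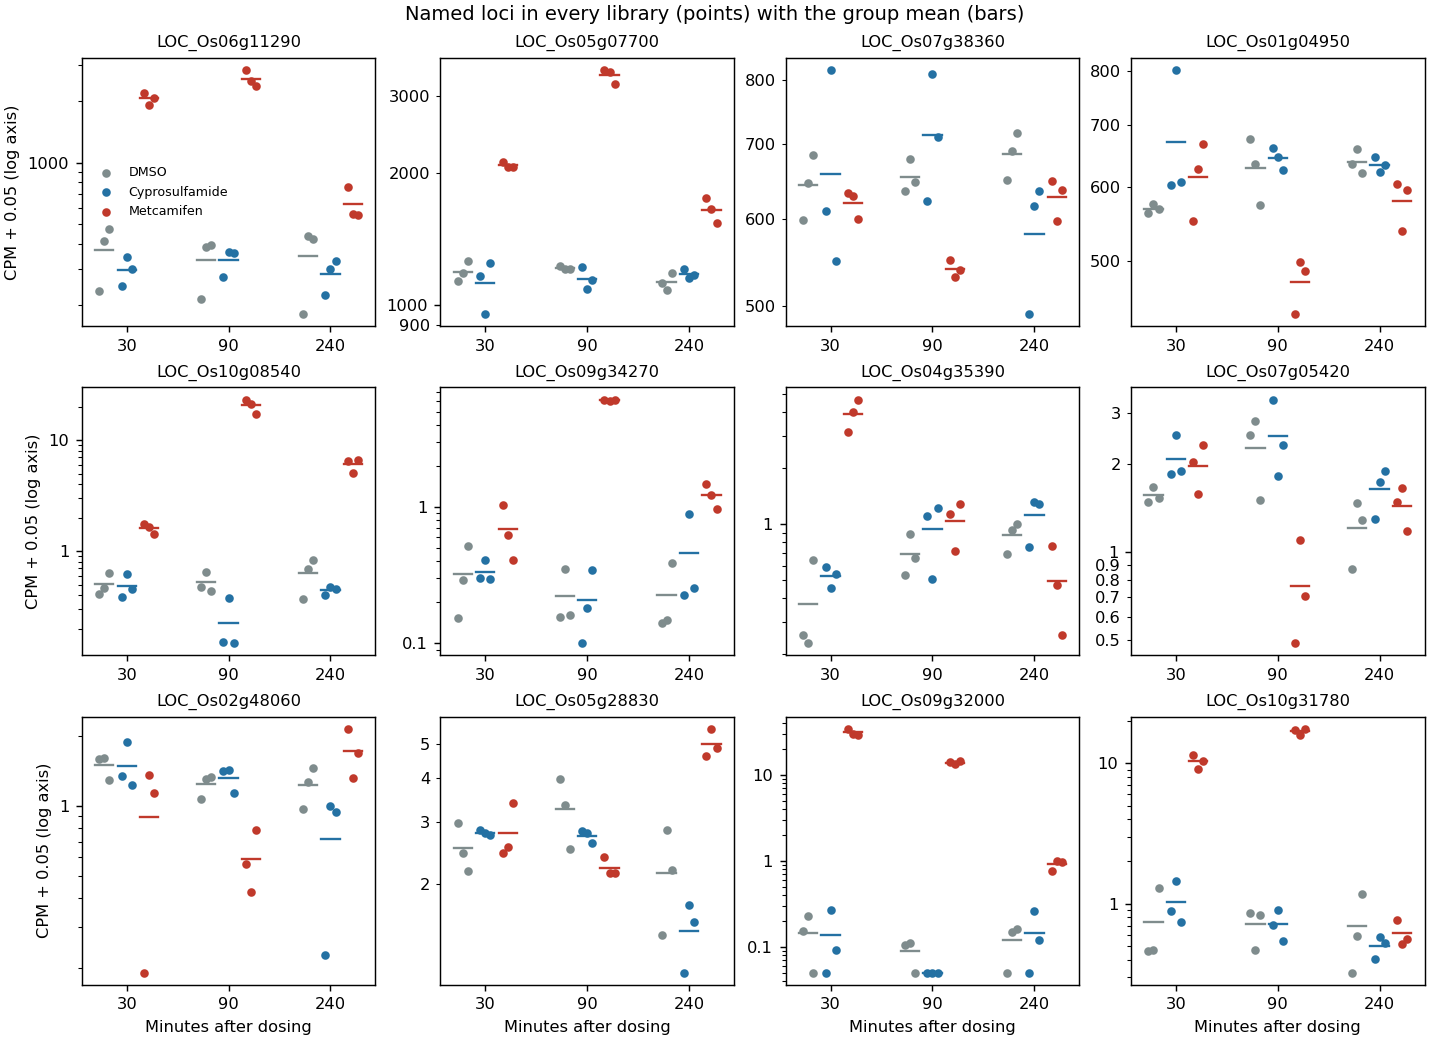
Level of the 12 named loci in every library (CPM + 0.05, log axis) by minutes after dosing, with points for libraries and bars for group means. The top row holds the loci named at 90 min, the middle row those named for the change from 30 to 90 min and the bottom row those named for the change from 90 to 240 min; in the top row the metcamifen points of 90 min lie outside the range of the cyprosulfamide and DMSO points of that time.

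Higher loci were found on all 12 chromosomes, from 3.35% of the tested loci on chromosome 12 to 5.82% on chromosome 2. Lower loci ranged from 0.930% on chromosome 9 to 2.41% on chromosome 4. In identifier order, 400 of the 1334 higher loci (30.0%) had a higher locus directly next to them among the tested loci, where 9.71% of all tested loci had such a neighbour. Of the 459 lower loci 41 did (8.93%), where 3.42% of all tested loci had a lower neighbour. Higher loci formed 142 pairs and 36 runs of 3 or more, and the longest runs had 5 loci. Neighbouring loci can be tandem copies with similar sequence, or overlap each other. How reads matching several loci, or either strand, were counted is not given in the sources used here, so counts within a run may not be separate measurements.

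The longest runs of higher loci stood on chromosomes 6 and 10. The run on chromosome 6 holds LOC_Os06g11290, and its 5 loci differed by 1.41 to 6.32 log2 units. All 5 were also higher at 30 min and 2 at 240 min, where 1.18% and 2.48% of all tested loci were called higher. Of all 1334 loci higher at 90 min, 22.04% and 30.5% were called higher at those times too. The run on chromosome 10 had differences of 0.83 to 5.39 log2 units, with 58.8, 65.3 and 60.3 CPM summed over its 5 loci under metcamifen and 10.7, 13.9 and 11.4 CPM under cyprosulfamide. It lies in a window of 20 consecutive tested loci of which 12 were higher and none lower. Those 12 loci summed to 2353, 1932 and 1871 CPM under metcamifen, 238, 276 and 303 CPM under cyprosulfamide and 217, 420.4 and 370.0 CPM in DMSO. Here the cyprosulfamide libraries lay within the range of DMSO, and all 3 metcamifen libraries far above it. The sums of the run and of the window cover only loci called higher in these libraries. That choice by itself sets metcamifen above cyprosulfamide. At 30 and at 240 min 7 of the 20 loci were higher, where 1.18% and 2.48% of all tested loci were.

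Across the genome, 1314 such windows of 20 tested loci were laid end to end along the chromosomes. The median window held 1 higher locus, 540 windows held none and 18 held 5 or more. After the window on chromosome 10, the fullest held 6. No window held more than 4 lower loci, and 939 held none. A run of 4 higher loci on chromosome 9 includes LOC_Os09g34270 and summed to 819.8, 834 and 821 CPM under metcamifen and 21.1, 20.2 and 19.5 CPM under cyprosulfamide, with differences of 3.26 to 6.02 log2 units. Next to it, DMSO libraries held 16.996, 23.5 and 17.3 CPM over the 4 loci. LOC_Os09g34270 held 6.11, 5.98 and 6.07 CPM of the metcamifen sums. This run too was formed by calls in these libraries, which by itself sets metcamifen above cyprosulfamide. Of the 4, 2 were higher at 30 min and 2 at 240 min, where 1.18% and 2.48% of all tested loci were called higher. Of all loci higher at 90 min, 22.04% and 30.5% were called higher at those times too. With only 4 loci, the counts for this run are given as values.

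**Figure D5:**
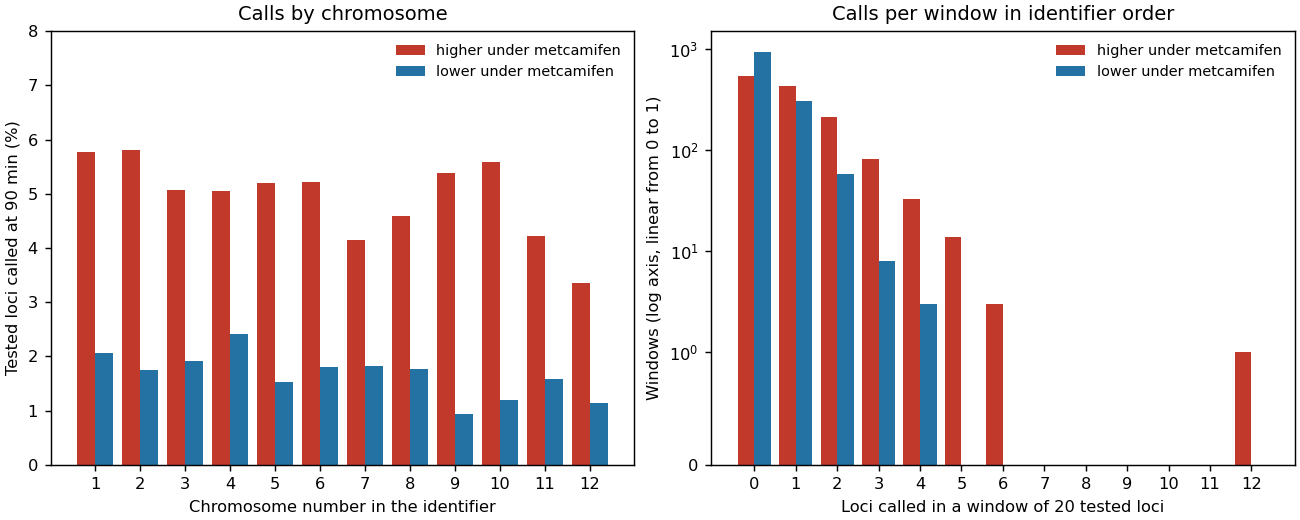
Left, share of tested loci called at 90 min (%) by the chromosome number in the identifier; right, number of windows of 20 consecutive tested loci (vertical axis logarithmic, linear from 0 to 1) by how many of their loci were called. Red bars are loci higher and blue bars loci lower under metcamifen; 1 window on chromosome 10 stands apart with 12 higher loci.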

How the data were processed

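The authors deposited 1 table of raw read counts per locus for 27 polyA RNA libraries, without normalization; its values are whole numbers, with library totals of 5516373 to 43747251. GSNAP and edgeR appear, unversioned, in the submitters' processing notes; the build, annotation, counter and strand setting were not stated there or in the labels. No gene name was used, since 0 of the 45866 LOC_Os identifiers matched the RefSeq gene table of 39387 rows. Libraries were grouped by treatment and time labels. filterByExpr (minimum count 10, minimum total 15) kept 26465 rows, 26377 of them LOC_Os, and the whole table was scaled by TMM and fitted with edgeR 4.0.16 (R 4.3.3), glmQLFit and glmQLFTest, on 9 group means with 18 residual degrees of freedom. Calls have a Benjamini-Hochberg adjusted p under 0.05 within a contrast over all 26465 rows; counts are of LOC_Os loci. Standard errors come from the log2 difference and its F statistic.

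Members and lists were chosen with earlier results of these data known. At 90 min, 2 loci per direction are named by the widest CPM difference among called loci without overlap, and for each change over time 2 per direction by the widest log2 change among called loci with a mean of at least 1 CPM. Same-numbered libraries of 90 and 240 min correlated at 0.379 to 0.738 (metcamifen) and 0.201 to 0.548 (cyprosulfamide) in their deviations from the group mean (loci whose mean log2 CPM exceeded 3), so numbers were taken to pair those times within a safener; this comes from the data, not the labels. The test was checked on simulated counts. Alternatives were DESeq2 1.42.0, its size factors, other filters, fewer libraries, thinned libraries, 1 surrogate variable (sva 3.50.0), replicate blocks, a test against 2-fold and adjustment over 3 contrasts.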

Additional observations from a re-analysis of the deposited data

Results flagged for a closer look

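Groups of 3 libraries are too small for a check of single libraries, so what stands out here are differences that changed between times. The difference between metcamifen and cyprosulfamide changed at 521 loci from 30 to 90 min and at 376 from 90 to 240 min. Both changes passed at LOC_Os05g07700 (0.65 and -1.06 log2 units), and the later one also at LOC_Os06g11290 (-1.81). LOC_Os10g08540 changed by 5.05 and then by -2.94 log2 units, and LOC_Os09g34270 by 4.49 and then by -3.87. From 30 to 90 min the values were -2.85 at LOC_Os04g35390 and -1.69 at LOC_Os07g05420. From 90 to 240 min they were 2.32 at LOC_Os02g48060, 2.08 at LOC_Os05g28830 and -4.33 at LOC_Os10g31780. The fitted value of -7.98 at LOC_Os09g32000 is no measure of size, since cyprosulfamide held 0 counts there at 90 min, and its call ended in 13 of 21 settings. Apart from LOC_Os05g07700 and LOC_Os06g11290, these loci were named for such a change, so that they show one is no further finding. LOC_Os05g07700 and LOC_Os06g11290 were chosen by their difference at 90 min, which by itself favours a wider difference then than at other times. Both changes use the 90 min libraries, so changes of opposite sign at a locus are in part built in.

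Rows without a LOC_Os identifier were left out of the counts. Among the 88 of them that were tested, ChrSy.fgenesh.gene.82 was higher under metcamifen than in DMSO at 90 min by 0.79 log2 units (adjusted p = 0.000745 in edgeR), at 13.96, 12.5 and 14.7 CPM against 7.29, 8.35 and 8.25 CPM. Its cyprosulfamide libraries held 7.90, 6.60 and 5.91 CPM, below every metcamifen library.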

How the results depend on the processing

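In place of 1793 loci at 90 min, thinning gave 734, 1 surrogate variable 3041 and a test against a 2-fold difference 286. Its 13 other alternatives stayed within 1.5 times, from 1233 to 1452 where 1 library was left out. For the change from 30 to 90 min (521) the values were 139 with thinning, 952 with the surrogate variable and 1478 (1256 more positive, 222 more negative) with safener and number as a replicate block. Same-numbered libraries correlated at 0.262 to 0.693 in 5 of these 6 pairs and at -0.0481 in 1, so the numbers were not taken to pair these times. For the change from 90 to 240 min (376) they were 144, 1061 and 1227, and 676 in a fit to the 12 compared libraries. Leaving out 1 library gave 355 to 542 and 268 to 370. At 30 min (376) thinning gave 210 and the surrogate variable 616, with 312 to 469 without 1 library; at 240 min (1043) they gave 335 and 1796, with 664 (without Cyprosulfamide_240min replicate 1) to 766 without 1 library, and 681 without Metcamifen_240min replicate 1. The replicate number as a block gave 1758 loci at 90 min; same-numbered libraries of the safeners correlated there at -0.540 to -0.227, none of the 6 correlated best with its own number, and they were not paired. The share of higher loci among calls was 74.4%, and 74.9% with DESeq2 size factors. It was 68.4% with the surrogate variable, 68.9% in a fit to the compared libraries, 81.5% with thinning, 81.6% without Metcamifen_90min replicate 1 and 98.6% in the test against 2-fold. No named locus changed direction under any alternative. Thinning lowers depth by its construction, and the cause of the other shifts was not tested. Against DMSO at 90 min, DESeq2, the replicate block and leaving out 1 library, chosen after seeing the data, gave 1177 to 1605 loci for metcamifen (1572) and 0 in each for cyprosulfamide.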

Other observations

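Of the 65 loci called lower under metcamifen than under cyprosulfamide at 30 min, 7 were called higher at 90 min, where 5.06% of all tested loci were. The 30 min list itself ranged from 23 loci without Cyprosulfamide_30min replicate 2 to 133 without Cyprosulfamide_30min replicate 3, so these 7 are given as values. Their median log2 differences at 30, 90 and 240 min were -0.78, 0.91 and 0.37. Under metcamifen their median levels at these times were 7.26, 23.6 and 13.2 CPM, under cyprosulfamide 12.2, 9.19 and 9.49 CPM, and in DMSO 9.69, 8.74 and 8.48 CPM.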
